A study of Mus musculus with 30 samples.

Results

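Lymphocytes find their place in lymphoid tissue through G protein-coupled receptors that read gradients of chemokines, oxysterols and sphingosine 1-phosphate. The 7 receptors described here are Ccr6, Cxcr5, Cxcr4, Cxcr3, Gpr183, S1pr4 and Cxcr6, chosen by the gene name that the array gives its non-control probes. They are 7 of the 18724 genes that passed the detection filter, and all 7 passed it. Their probes number 8 of 39429, because Cxcr6 has 2.

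Blood RNA of male C57BL/6J mice was hybridised to 30 one-colour Agilent arrays, 5 in each of 6 groups. The groups were p38DKI mice after 7 Gy of X-rays, unirradiated p38DKI mice, p38DN mice after 7 Gy, unirradiated p38DN mice, p38WT mice after 7 Gy, and unirradiated p38WT mice. Blood was drawn by cardiac puncture 24 h after exposure and stabilised in PAXgene solution. The series describes 5 independent experiments for each genotype and treatment, and its question is how p38, a stress-activated mitogen-activated protein kinase, bears on the blood radiation response used for biodosimetry. The labels used here expand neither DKI nor DN, and give neither an age nor the cells in which the altered p38 is expressed. p38WT is the wild type.

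A level below is the log2 processed intensity of the gene's probe minus the 75th percentile of that array, so 0 is the 75th percentile. Levels are compared between mice for 1 gene, not between genes. A change is called where limma's adjusted p over all 18724 genes is below 0.05. Where a result is called a fold, it is the fold of the linear intensity. Where levels are said not to overlap between groups, the share of all genes without overlap was not counted. The 75th percentile of intensity ran between 43.3 and 230.4 over the arrays, and 39.24% to 63.22% of probes on an array were well above background. Across all genes the median change after irradiation was -0.25 in p38DKI, 0.01 in p38DN and -0.03 in p38WT mice.

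Array slides were shared unequally by the groups. The p38DKI and p38WT samples lay on slides 1 to 5 and the p38DN samples on slides 6 to 10, scanned in an earlier period, so slide set and genotype cannot be told apart where p38DN and p38WT are compared. In p38DN mice each slide held the irradiated and unirradiated samples of 1 number, whereas slide 4 alone held both doses of p38DKI and slide 2 alone both doses of p38WT. A marker score is the mean, over the genes of a list, of the gene's level minus its median over the 30 arrays. The liver score, of 17 genes such as Alb and Apoa1, was highest on irradiated p38DKI array 2, at 9.06. Next came unirradiated p38DN arrays 4, 5 and 2, at 7.83, 7.79 and 6.73. The unirradiated p38WT arrays ranged between -2.91 and -2.18 in the same measure. Receptor calls that changed without these 4 arrays are given beside the results.

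The receptors fall into 3 roles. Ccr6, the receptor of Ccl20, Cxcr5, the receptor of Cxcl13, and Gpr183, the receptor of oxysterols such as 7α,25-dihydroxycholesterol, guide B cells and helper T cells within lymphoid tissue. Cxcr4, the receptor of Cxcl12, retains leukocytes in bone marrow, and S1pr4 is a sphingosine 1-phosphate receptor of lymphoid and myeloid cells. Cxcr3, the receptor of Cxcl9 and Cxcl10, and Cxcr6, the receptor of Cxcl16, mark activated and memory T cells and natural killer cells.

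Promoters of 4 receptors are shown here. Ccr6 and Gpr183 are among those whose levels fell in every genotype, and Cxcr3 and Cxcr6 had the levels most alike over the arrays. Each is the RefSeq window in GRCm38.p6 with 250 bases before and 50 after the start site, printed 5′ to 3′ on the gene's strand. The promoter table matched 6 of the 7 receptors, with 7 windows. Ccr6 has another window, chr17:8242276-8242575 (+), which held no match to any searched motif and is not shown. The window of S1pr4, which also fell in every genotype, is not shown either. Capitals mark matches, on either strand, to the octamer (ATGCAAAT or ATTTGCAT), the ETS and PU.1 core (GAGGAAG or CTTCCTC) and the RUNX core (TGTGGT or ACCACA). Windows are Ccr6 at chr17:8235793-8236092 (+), Gpr183 at chr14:121965144-121965443 (-), Cxcr3 at chrX:101734098-101734397 (-) and Cxcr6 at chr9:123806227-123806526 (+).
Ccr6: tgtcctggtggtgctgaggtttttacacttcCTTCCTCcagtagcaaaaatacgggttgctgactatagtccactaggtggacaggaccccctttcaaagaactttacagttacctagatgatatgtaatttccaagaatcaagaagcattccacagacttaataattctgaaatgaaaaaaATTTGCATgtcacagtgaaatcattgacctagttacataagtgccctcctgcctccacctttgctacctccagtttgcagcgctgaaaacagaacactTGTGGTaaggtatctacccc
Gpr183: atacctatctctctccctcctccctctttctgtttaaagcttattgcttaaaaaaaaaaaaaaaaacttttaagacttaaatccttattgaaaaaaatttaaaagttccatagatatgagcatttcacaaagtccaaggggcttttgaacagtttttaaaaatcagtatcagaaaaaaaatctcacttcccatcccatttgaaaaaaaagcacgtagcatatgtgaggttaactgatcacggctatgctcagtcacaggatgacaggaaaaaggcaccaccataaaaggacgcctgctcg
Cxcr3: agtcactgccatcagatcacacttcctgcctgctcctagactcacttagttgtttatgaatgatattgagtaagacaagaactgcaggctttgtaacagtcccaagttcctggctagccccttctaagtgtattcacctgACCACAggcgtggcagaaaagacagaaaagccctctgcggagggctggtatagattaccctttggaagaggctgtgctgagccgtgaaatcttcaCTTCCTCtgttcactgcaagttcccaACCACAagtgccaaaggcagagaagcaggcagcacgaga
Cxcr6: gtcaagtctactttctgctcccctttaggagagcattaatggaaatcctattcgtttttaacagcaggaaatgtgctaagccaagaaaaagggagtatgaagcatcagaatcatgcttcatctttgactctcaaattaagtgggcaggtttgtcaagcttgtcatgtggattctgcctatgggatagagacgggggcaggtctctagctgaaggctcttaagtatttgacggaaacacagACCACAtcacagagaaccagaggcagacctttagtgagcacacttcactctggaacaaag

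Of 32851 mouse promoter windows of the same length, 1.74% held the octamer, 13.6% the ETS and PU.1 core and 16.8% the RUNX core. The octamer match in Ccr6 began at position -68 from the start site, and among the 7 receptor windows only that one held the octamer. The ETS and PU.1 core was matched at -219 in Ccr6 and at -15 in Cxcr3. RUNX core matches began at 31 in Ccr6, at -110 and 12 in Cxcr3 and at -10 in Cxcr6. Matches in Cxcr3 and Cxcr6 thus shared the RUNX core but no other searched motif. The T-box core (GGTGTGA or TCACACC), held by 3.98% of windows, and the AP-1 site (TGANTCA), held by 7.81%, were searched on both strands too, and no receptor window contained those letters. No 2 of the marked matches overlap. A match describes the letters of the window and is no evidence of binding.

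Among the 7 receptors the largest falls after irradiation were those of the B cell follicle. Ccr6 fell 31.6-fold in p38DKI, 17.3-fold in p38DN and 30.6-fold in p38WT mice, Gpr183 fell 9.85-fold, 6.99-fold and 14.9-fold in the same genotypes, and Cxcr5 fell 14.3-fold, 3.81-fold and 18-fold. S1pr4 fell in all 3 genotypes by 1.9-fold to 3.98-fold. Cxcr4 fell in p38DKI and p38DN mice, and Cxcr3 rose in p38WT mice. In irradiated p38DN mice only 2 of 5 arrays read the Ccr6 probe and 3 of 5 the Gpr183 probe well above background, so the p38DN folds of both rest partly on signals near it. Normexp background correction was run with an offset of 50 added to every intensity, which shrinks log2 changes of low signals. With it the p38DN changes were -1.4 for Ccr6 and -0.62 for Gpr183 on the log2 scale, and the Gpr183 change no longer passed (adjusted p 0.206). Called members numbered 5 lower and 0 higher in p38DKI, 5 lower and 0 higher in p38DN, and 4 lower and 1 higher in p38WT mice. Over all genes the share called lower was 19.3% in p38DKI, 10.3% in p38DN and 12.1% in p38WT mice, and the share called higher was 12.1%, 17.6% and 15% in that order of genotypes. The median change of the 7 receptors was -1.99 in p38DKI, -1.09 in p38DN and -0.92 in p38WT mice.

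**Figure D1:**
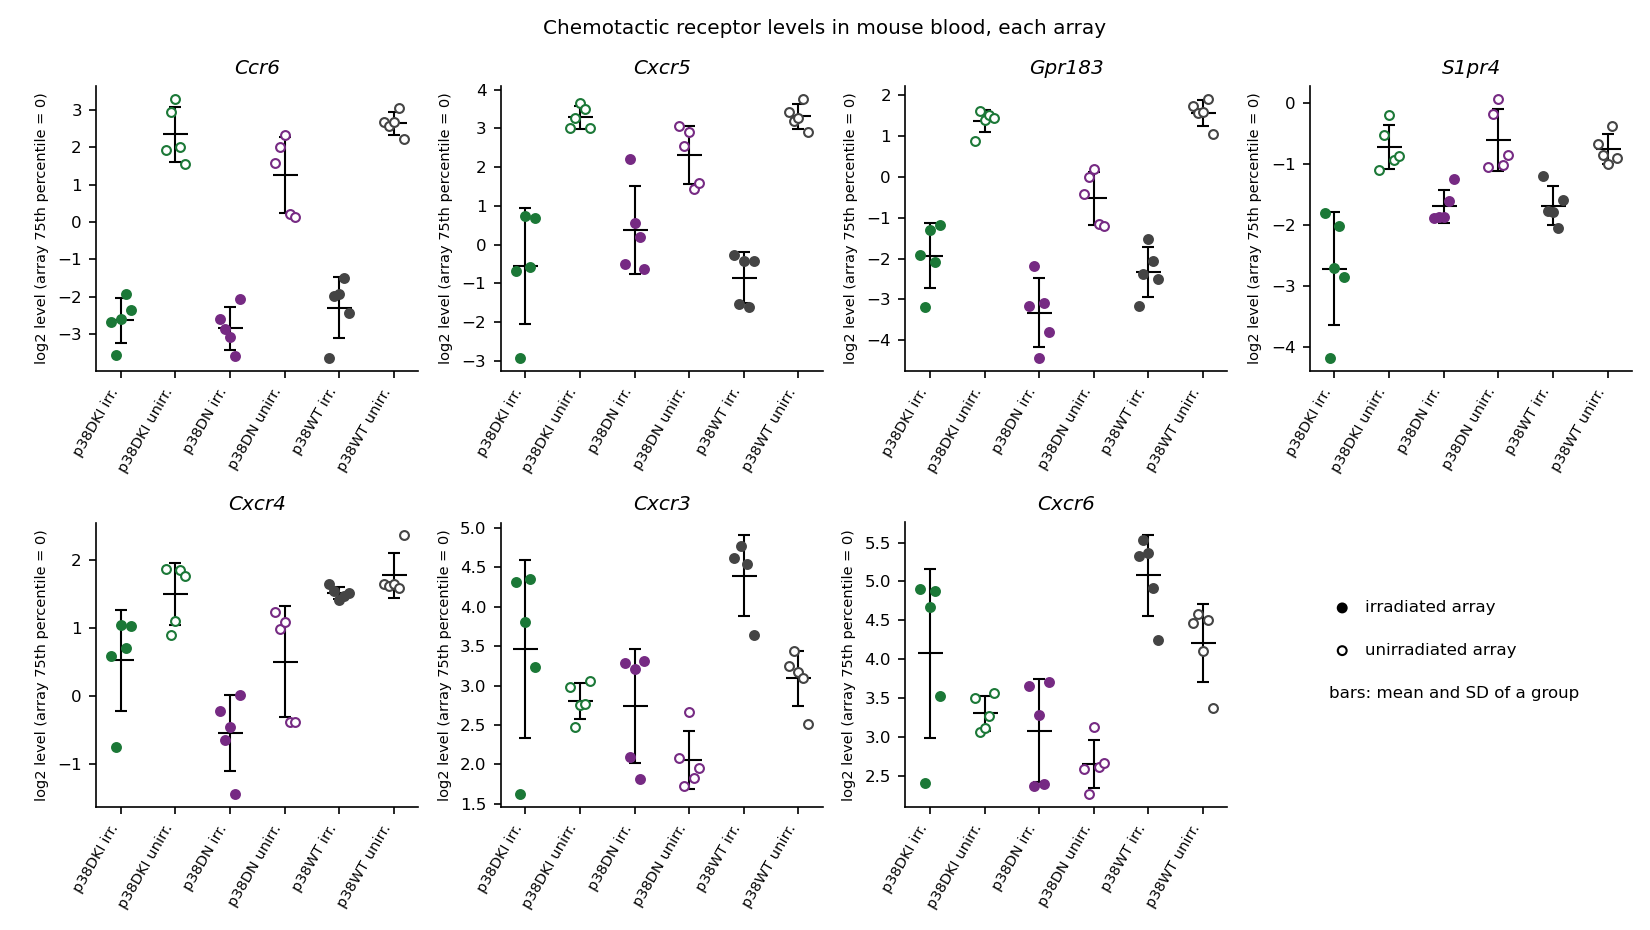
Level of each receptor (log2, 0 is the array's 75th percentile) on each array, by genotype and dose, with irradiated groups (filled points) left of unirradiated ones (open points), and bars for mean and SD. Ccr6, Gpr183 and S1pr4 did not overlap between doses in any genotype, and on irradiated p38DKI array 2 all 7 receptors were at the lowest level of their group. The share of all genes without overlap was not counted.

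Ccr6 was measured by a probe at chr17:8449933-8449992 (mm9, + strand). Its level was -2.68, -3.57, -2.61, -1.92 and -2.37 in irradiated p38DKI mice, against 1.93, 2.96, 3.3, 2 and 1.55 in unirradiated p38DKI mice. In p38DN mice it was -2.61, -2.88, -3.09, -3.6 and -2.06 after irradiation, against 1.59, 2.01, 2.34, 0.21 and 0.13 without it. Levels in p38WT mice were -3.64, -1.97, -1.93, -1.51 and -2.43 after irradiation and 2.67, 2.57, 2.68, 3.07 and 2.22 without it. Every irradiated mouse lay below every unirradiated mouse of its genotype, and irradiated levels were close to the detection limit. The probe was well above background on 5 of 5 irradiated p38DKI, 2 of 5 irradiated p38DN and 4 of 5 irradiated p38WT arrays, and on all 5 of each unirradiated group. The log2 change was -4.98 (SE 0.434, adjusted p 5.09e-09, limma) in p38DKI, -4.11 (SE 0.434, adjusted p 1.61e-07) in p38DN and -4.94 (SE 0.434, adjusted p 6.2e-09) in p38WT mice.

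Among the members, Ccr6 kept its call in every genotype under all 25 alternative settings. With normexp background correction, whose offset of 50 shrinks changes of low signals, its change was -2.64 in p38DKI, -1.4 in p38DN and -2.79 in p38WT mice. Within slide 4 the 1 irradiated p38DKI array differed by -4.97 from the mean of 3 unirradiated arrays, and within slide 2 the mean of 3 irradiated p38WT arrays differed by -4.73 from the 1 unirradiated array. On the 5 p38DN slides the irradiated array was lower each time, with differences between -5.43 and -2.19. Without the 4 arrays highest in liver transcripts the p38DN change was -4.82.

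Cxcr5, the receptor that brings B cells into follicles, was read at chr9:44320071-44320130 (mm9, - strand). It had levels of -0.68, -2.92, 0.74, -0.58 and 0.7 in irradiated p38DKI mice and 3, 3.28, 3.66, 3.51 and 3.01 in unirradiated p38DKI mice. The p38DN values were -0.5, 2.22, 0.57, 0.21 and -0.62 after irradiation and 3.07, 2.54, 2.9, 1.44 and 1.58 without. In p38WT mice they were -0.27, -1.53, -0.43, -1.62 and -0.43 after irradiation and 3.43, 3.18, 3.27, 3.76 and 2.91 without. The doses did not overlap in p38DKI or p38WT mice, whereas irradiated p38DN array 2, at 2.22, lay among the unirradiated p38DN values. Cxcr5 changed by -3.84 (SE 0.535, adjusted p 7.2e-06, limma) in p38DKI, -1.93 (SE 0.535, adjusted p 0.00769) in p38DN and -4.17 (SE 0.535, adjusted p 2.44e-06) in p38WT mice.

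Between genotypes the Cxcr5 changes differed by 2.24 (SE 0.757) for p38DN minus p38WT, with an adjusted p of 0.107 that did not pass, and by 0.32 (SE 0.757, adjusted p 0.843) for p38DKI minus p38WT. Irradiated p38DN and unirradiated p38DN arrays of the same slide differed by -3.57 to -0.32, lower on 5 of 5 slides. With the slide as a fixed block the p38WT change was -3.65 (adjusted p 0.107), which ended that call, and the p38DKI change was -4.08 (adjusted p 0.0314). With normexp background correction the p38DN change was -0.89 (adjusted p 0.475), and without the 4 arrays highest in liver transcripts it was -2.61 (adjusted p 0.00133). Unscaled, the p38DN minus p38WT difference of the changes was 2.75 and passed (adjusted p 0.0421).

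Gpr183, also called EBI2, is needed for B cells to reach the outer follicle, and its probe lies at chr14:122351881-122351940 (mm9, - strand). Levels were -1.91, -3.18, -1.29, -2.09 and -1.18 in irradiated p38DKI mice, against 0.89, 1.61, 1.4, 1.51 and 1.44 in unirradiated p38DKI mice. Irradiated p38DN mice had -3.15, -2.17, -4.43, -3.08 and -3.79, against -0.43, 0, 0.19, -1.16 and -1.21 in unirradiated p38DN mice. Irradiated p38WT mice had -3.17, -2.37, -1.51, -2.07 and -2.49, against 1.74, 1.57, 1.6, 1.91 and 1.06 in unirradiated p38WT mice. No irradiated level reached an unirradiated one in any genotype. The change was -3.3 (SE 0.382, adjusted p 5.01e-07, limma) in p38DKI, -2.8 (SE 0.382, adjusted p 5.98e-06) in p38DN and -3.9 (SE 0.382, adjusted p 3.43e-08) in p38WT mice. Only 3 of 5 irradiated p38DN arrays read the probe well above background, and normexp reduced the p38DN change to -0.62 (adjusted p 0.206). The change was -3.36 within slide 4 (p38DKI) and -3.41 within slide 2 (p38WT), and on the p38DN slides it lay between -4.63 and -1.93.

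S1pr4 was read by a probe at chr10:80961501-80961560 (mm9, - strand). It stood at -1.81, -4.18, -2.71, -2.02 and -2.86 in irradiated p38DKI mice and at -1.1, -0.52, -0.19, -0.93 and -0.87 in unirradiated p38DKI mice. In p38DN mice the levels were -1.88, -1.87, -1.86, -1.61 and -1.25 after irradiation and -1.04, -0.18, 0.07, -1.02 and -0.85 without. In p38WT mice they were -1.2, -1.77, -1.79, -2.05 and -1.59 after irradiation and -0.67, -0.85, -0.99, -0.37 and -0.9 without. The doses were separated in each genotype, by a narrow margin in p38DN and p38WT mice. S1pr4 changed by -1.99 (SE 0.311, adjusted p 3.33e-05, limma) in p38DKI, -1.09 (SE 0.311, adjusted p 0.00955) in p38DN and -0.92 (SE 0.311, adjusted p 0.0279) in p38WT mice.

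For S1pr4 the p38DKI change differed from the p38WT change by -1.07 (SE 0.44), which did not pass (adjusted p 0.299). The p38WT call was lost without irradiated p38WT array 4 (-0.83, adjusted p 0.0708), without unirradiated p38WT array 1 (-0.9, adjusted p 0.0537) or 4 (-0.83, adjusted p 0.0762), and with normexp (-0.15, adjusted p 0.579). Normexp also ended the p38DN call (-0.36, adjusted p 0.535), as did leaving the arrays unscaled (-1, adjusted p 0.0684). With the slide as a block the change was -1.15 (adjusted p 0.321) in p38DKI and -0.68 (adjusted p 0.73) in p38WT mice, and the p38DN arrays differed by -1.94 to -0.4 within slides, lower on 5 of 5.

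**Figure D2:**
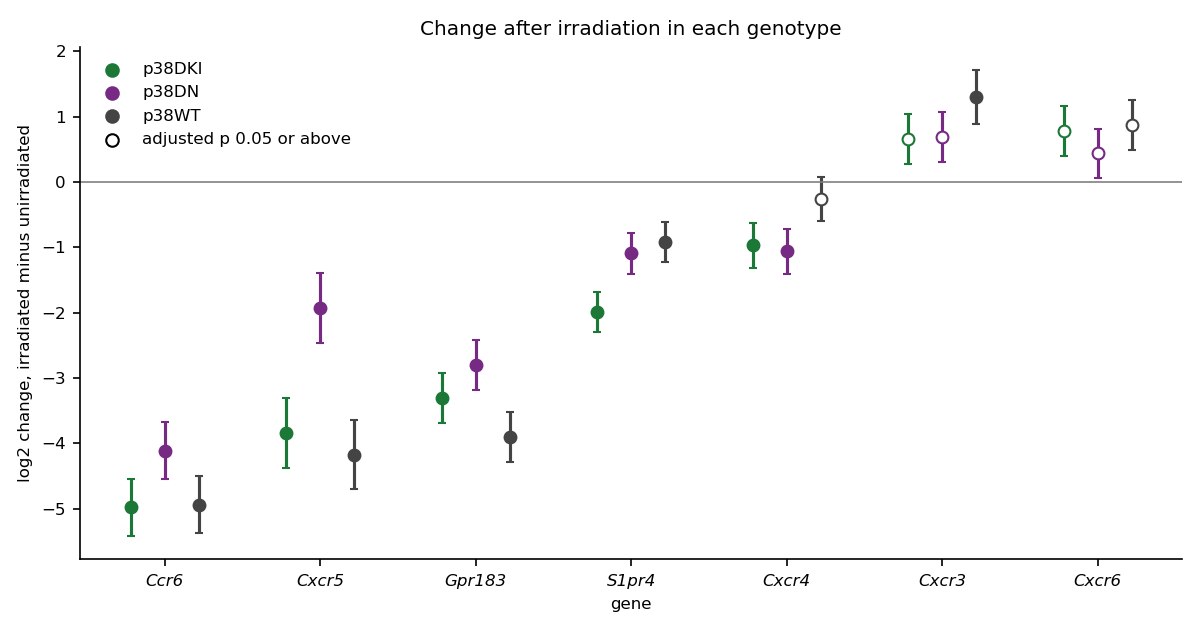
Change after irradiation (log2, irradiated minus unirradiated) of each receptor in each genotype, with SE bars from limma, where filled points passed an adjusted p of 0.05. Ccr6, Gpr183, Cxcr5 and S1pr4 were called lower in all 3 genotypes, Cxcr4 lower in p38DKI and p38DN mice, and Cxcr3 higher in p38WT mice.

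Cxcr4 was called lower in p38DKI and p38DN mice, by calls that single arrays could end. Its probe lies at chr1:130485079-130485138 (mm9, - strand). Levels were 0.59, -0.76, 1.04, 0.71 and 1.03 in irradiated p38DKI mice, against 1.86, 0.9, 1.1, 1.85 and 1.76 in unirradiated p38DKI mice. They were -0.22, -0.65, -0.46, -1.45 and 0.01 in irradiated p38DN mice, against 1.23, 0.99, 1.08, -0.39 and -0.39 in unirradiated p38DN mice. Levels in p38WT mice were 1.64, 1.54, 1.41, 1.47 and 1.51 after irradiation and 1.65, 1.61, 1.65, 1.59 and 2.36 without. The doses overlapped in all 3 genotypes. In p38DKI mice Cxcr4 changed by -0.97 (SE 0.344, adjusted p 0.0324, limma) and in p38DN mice by -1.06 (SE 0.344, adjusted p 0.0217), and in p38WT mice the difference of -0.26 (SE 0.344, adjusted p 0.632) did not pass.

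Without irradiated p38DKI array 2, the array with the highest liver score, the Cxcr4 change in p38DKI mice was -0.65 (adjusted p 0.125). Leaving out unirradiated p38DKI array 1, 4 or 5 also ended that call, with adjusted p between 0.0693 and 0.0741, as did array median scaling (-0.55, adjusted p 0.24), no scaling (-0.35, adjusted p 0.474), the deposited values (adjusted p 0.0621), normexp (adjusted p 0.147), a fit on the compared groups alone (adjusted p 0.075) and the slide as a fixed block (adjusted p 0.428). In p38DN mice the call was lost without irradiated array 4 (-0.84, adjusted p 0.0833) or unirradiated array 1 (-0.88, adjusted p 0.0664), 2 (-0.94, adjusted p 0.0637) or 3 (-0.92, adjusted p 0.0631), with normexp (-0.61, adjusted p 0.221) and with a fit on the compared groups alone (adjusted p 0.0778). On the p38DN slides Cxcr4 was lower in the irradiated array on 4 of 5, with differences between -1.64 and 0.4. Without the 4 arrays highest in liver transcripts, the Cxcr4 change was -0.65 (adjusted p 0.0468) in p38DKI and -1.71 (adjusted p 0.000351) in p38DN mice. The p38DN change then differed from the p38WT change by -1.45 (adjusted p 0.0393), whereas with all arrays that difference was -0.8 (SE 0.487, adjusted p 0.377).

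With the brightest probe standing for each gene, Cxcr3 was the 1 receptor called higher after irradiation, in p38WT mice, and the differences of its change between genotypes did not pass. Its probe lies at chrX:98926920-98926979 (mm9, - strand). Levels were 4.31, 1.62, 3.81, 4.35 and 3.24 in irradiated p38DKI mice, against 2.98, 2.47, 2.75, 2.77 and 3.06 in unirradiated p38DKI mice. In p38DN mice they were 3.28, 2.09, 3.21, 1.82 and 3.31 after irradiation and 2.08, 1.73, 2.67, 1.83 and 1.96 without. Irradiated p38WT mice had 4.62, 4.77, 4.54 and 3.64, with array 4 left out because its spot was marked as an outlier, against 3.25, 3.44, 3.17, 3.09 and 2.51 in unirradiated p38WT mice. The p38WT doses did not overlap and those of p38DKI and p38DN did.

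Cxcr3 rose 2.46-fold in p38WT mice, a log2 change of 1.3 (SE 0.41, adjusted p 0.0196, limma, n = 4 and 5). The differences of 0.66 (SE 0.387, adjusted p 0.187) in p38DKI and 0.69 (SE 0.387, adjusted p 0.192) in p38DN mice did not pass. The p38DKI change differed from the p38WT change by -0.64 (SE 0.564, adjusted p 0.589) and the p38DN change by -0.61 (SE 0.564, adjusted p 0.584). Without irradiated p38DKI array 2 the p38DKI change was 1.12 and passed (adjusted p 0.00815), as it did without the 4 arrays highest in liver transcripts (adjusted p 0.0102), with array median scaling (1.08, adjusted p 0.0162), unscaled (1.28, adjusted p 0.00879) and with the deposited values (0.89, adjusted p 0.0357). The p38WT call was lost without irradiated p38WT array 2 (1.17, adjusted p 0.056), without scaling (0.88, adjusted p 0.0893) and with normexp (1.09, adjusted p 0.119). Within slide 2 the p38WT difference was 2.13 (adjusted p 0.158 with slide as a block), within slide 4 the p38DKI difference was 1.45, and irradiated p38DN arrays were higher on 4 of 5 slides (-0.01 to 1.35).

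Cxcr6 had 2 probes, and by neither was its change after irradiation called in p38DKI or p38DN mice. The brighter probe lies at chr9:123720719-123720778 (mm9, + strand) and the other at chr9:123720709-123720768, so they share most of their target. By the brighter probe Cxcr6 stood at 4.9, 2.41, 4.67, 4.87 and 3.53 in irradiated p38DKI mice and 3.5, 3.06, 3.11, 3.27 and 3.56 in unirradiated p38DKI mice. It stood at 3.65, 2.37, 3.28, 2.39 and 3.71 in irradiated p38DN mice and 2.58, 2.26, 3.12, 2.61 and 2.66 in unirradiated p38DN mice. In p38WT mice the values were 5.33, 5.53, 5.36, 4.91 and 4.25 after irradiation and 4.46, 4.58, 4.11, 4.5 and 3.37 without. The doses overlapped in each genotype, and on irradiated p38DKI array 2 the level was below every unirradiated p38DKI level.

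The differences in Cxcr6 of 0.78 (SE 0.378, adjusted p 0.115, limma) in p38DKI, 0.44 (SE 0.378, adjusted p 0.421) in p38DN and 0.87 (SE 0.378, adjusted p 0.0889) in p38WT mice did not pass. By the other probe the p38WT change was 1.1 (adjusted p 0.0239) and by the mean of both probes 0.99 (adjusted p 0.0448), which did. The p38DKI change passed without irradiated p38DKI array 2 (1.19, adjusted p 0.00681), without the 4 arrays highest in liver transcripts (adjusted p 0.00937), with array median scaling (1.2, adjusted p 0.0076), unscaled (1.4, adjusted p 0.00679) and with the deposited values (1, adjusted p 0.0185). The p38WT change passed without irradiated p38WT array 5 (1.08, adjusted p 0.0448), without the 4 liver-rich arrays (0.87, adjusted p 0.0367) and in a fit on the compared groups alone (adjusted p 0.0487). Within slide 2 the p38WT difference was 2.04, and with the slide as a block it did not pass (adjusted p 0.167). Within slide 4 the p38DKI difference was 1.59, and within the p38DN slides it lay between -0.22 and 1.07.

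Cxcr3 and Cxcr6 moved together from array to array. Over 29 arrays their levels correlated at r = 0.957, and at 0.963 once each group's mean was removed. Cxcr3 was also close to Il2rb, a subunit of the interleukin-2 and interleukin-15 receptors (r = 0.946, and 0.956 within groups), and Cxcr6 to Xcl1, a chemokine of activated T and natural killer cells (r = 0.933, and 0.83 within groups, 30 arrays). A transcript listed as ENSMUST00000103558.2, which the reference table does not name, was likewise near both (0.963 with Cxcr3 and 0.924 with Cxcr6). The points share arrays, scaling and the dose groups, so these correlations are descriptions with no test.

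**Figure D3:**
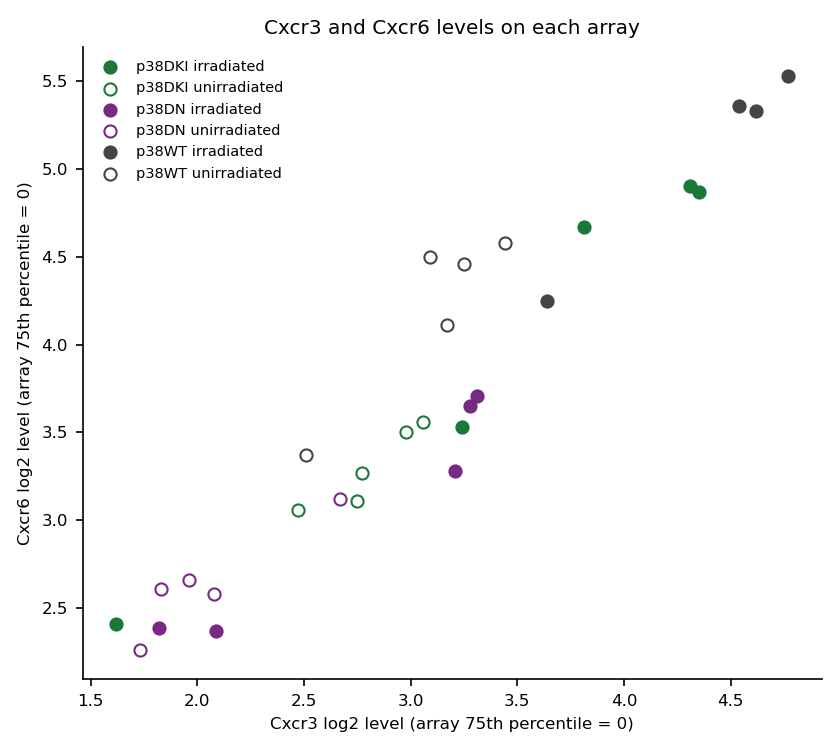
Cxcr6 level against Cxcr3 level (both log2, 0 is the array's 75th percentile) for the 29 arrays with both values, coloured by genotype, filled where irradiated. The levels rise together (r = 0.957), with irradiated p38WT arrays at the upper end and irradiated p38DKI array 2 (1.62 and 2.41) among the lowest.

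The other receptors were nearest to different genes by the same measure over 30 arrays. Ccr6 was nearest to Xkrx (r = 0.983), Chst3 (0.978) and H2-Eb2, a major histocompatibility class II gene (0.977), and Cxcr5 to Bank1, an adaptor of B cell receptor signalling (0.979), Cd74, the class II invariant chain (0.976), and Cd79b, a B cell receptor subunit (0.976). With group means removed, the Ccr6 values were 0.796, 0.772 and 0.777 and the Cxcr5 values 0.926, 0.909 and 0.917. Gpr183 was nearest to Trib2 (0.978), Ccr7 (0.975) and B3gnt5 (0.969), Cxcr4 to Med30 (0.927), Psip1 (0.925) and Acap1 (0.919), and S1pr4 to Cdt1 (0.924), Nap1l4 (0.921) and Phgdh (0.915). Within groups these 9 values lay lower, at 0.845, 0.797 and 0.765 for Gpr183, 0.788, 0.833 and 0.782 for Cxcr4, and 0.78, 0.752 and 0.688 for S1pr4.

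Markers of B, T and natural killer cells were read beside the receptors. The B cell list fell in 14 of 14 genes in each genotype. Among all genes 19.3% were called lower in p38DKI, 10.3% in p38DN and 12.1% in p38WT mice. The B cell score was -4.16 to -1.67 in irradiated and 1.48 to 2.31 in unirradiated p38DKI mice. It was -2.23 to -0.8 and 0.56 to 1.94 in irradiated and unirradiated p38DN mice, and -2.78 to -2.05 and 1.68 to 2.33 in irradiated and unirradiated p38WT mice. Cd79a, a B cell receptor subunit, changed by -4.71 (adjusted p 1.25e-07, limma) in p38DKI, -3.21 (adjusted p 2.92e-05) in p38DN and -4.77 (adjusted p 9.59e-08) in p38WT mice. All 14 B cell genes passed the filter, and over 30 arrays their mean correlated with Ccr6 at 0.957 and Cxcr5 at 0.958, falling to 0.638 and 0.812 within groups. The T cell score correlated with Ccr6 at 0.769 and Cxcr5 at 0.65, and at 0.571 and 0.343 within groups. For the natural killer score these values were -0.124 and -0.267, and 0.599 and 0.389 within groups. Whole blood cannot tell fewer cells of a type from less RNA per cell, and the part of cell numbers in the receptor changes was not tested.

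T cell markers fell in 14 of 18 genes in p38DKI, 6 of 18 in p38DN and 6 of 18 in p38WT mice, and none rose in any of the 3. Among all genes 19.3%, 10.3% and 12.1% were called lower in the same order. The T cell score ranged between -2.59 and -0.11 in irradiated and 0.49 and 1.02 in unirradiated p38DKI mice. It ranged between -1.83 and -0.74 in irradiated and -1.03 and 0.04 in unirradiated p38DN mice. In p38WT mice it ranged between -0.68 and 0.19 in irradiated and 0.44 and 0.88 in unirradiated mice. Cd3e, a T cell receptor subunit, fell by 1.28 (adjusted p 0.0125, limma) in p38DKI mice, and its differences of -0.47 (adjusted p 0.386) in p38DN and -0.53 (adjusted p 0.364) in p38WT mice did not pass. Natural killer markers rose in 4 of 12 genes in p38DKI, 2 of 12 in p38DN and 9 of 12 in p38WT mice, and none fell. Among all genes 12.1%, 17.6% and 15% were called higher in that order, so the p38DN count was near the share of all genes. Ncr1, an activating receptor of natural killer cells, rose by 1.68 in p38WT mice (adjusted p 0.00375), against differences of 0.89 (adjusted p 0.107) in p38DKI and 0.29 (adjusted p 0.65) in p38DN mice. The natural killer mean correlated with Cxcr3 at 0.861 over 29 arrays and 0.791 within groups, and with Cxcr6 at 0.862 over 30 arrays and 0.682 within groups. The T cell mean correlated with Cxcr3 at 0.299 over the arrays and 0.866 within groups, and with Cxcr6 at 0.358 and 0.782 by the same measures. The part of these cells in the Cxcr3 and Cxcr6 differences was not tested.

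**Figure D4:**
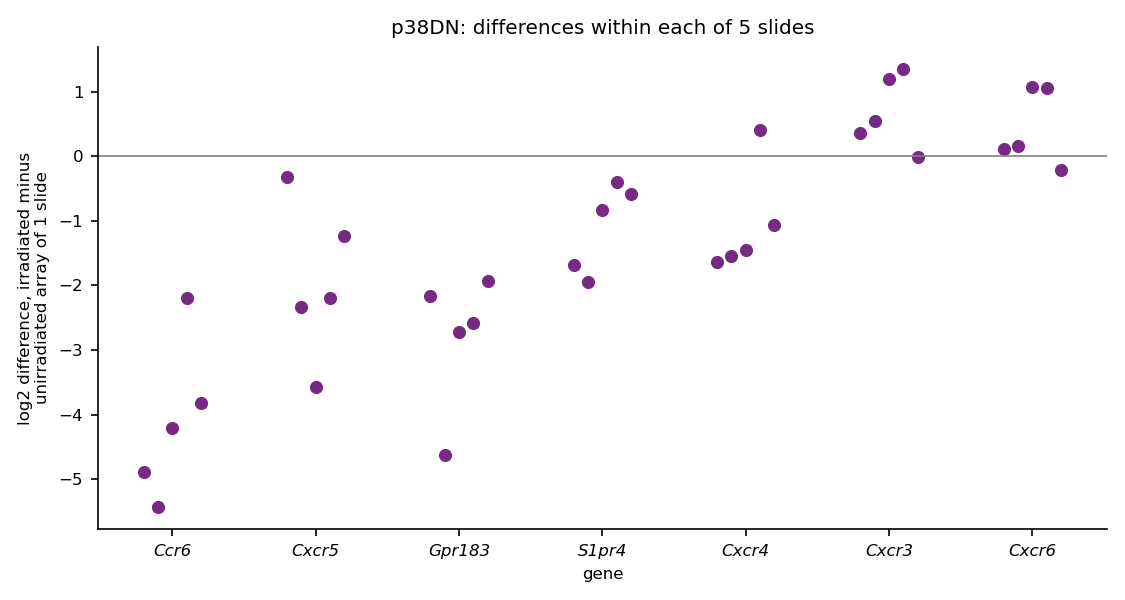
Difference between the irradiated and the unirradiated p38DN array of the same slide (log2), for each receptor on 5 slides. Ccr6, Cxcr5, Gpr183 and S1pr4 lie below 0 on 5 of 5 slides, Cxcr4 on 4 of 5, and Cxcr3 and Cxcr6 above 0 on 4 of 5.

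Most of the receptors were called lower in p38DN than in p38WT mice both before and after irradiation, whereas between p38DKI and p38WT mice no receptor was called by its brightest probe. In unirradiated mice p38DN was lower than p38WT for 5 of the 7 receptors and higher for 0, against 37.6% of all genes called lower and 18.3% called higher. The median difference was -1.27 over the 7 receptors and -0.42 over all genes, so the whole array was shifted the same way. Gpr183 averaged -0.52 ± 0.647 in p38DN and 1.58 ± 0.319 in p38WT mice (SD, n = 5 each), a difference of -2.09 (SE 0.382, adjusted p 4.62e-05, limma). Cxcr6 differed by -1.56 (SE 0.378, adjusted p 0.00107), Cxcr4 by -1.27 (SE 0.344, adjusted p 0.0029), Ccr6 by -1.38 (SE 0.434, adjusted p 0.00871) and Cxcr3 by -1.04 (SE 0.387, adjusted p 0.025). Cxcr5 (-1, adjusted p 0.112) and S1pr4 (0.15, adjusted p 0.694) did not pass, though Cxcr5 did unscaled (-1.37, adjusted p 0.0188), with normexp (-1.53, adjusted p 0.00859) and in a fit on the compared groups alone (adjusted p 0.0243). Gpr183, Cxcr4 and Cxcr6 did not overlap between the genotypes, and how many of all genes did not overlap was not counted.

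Without the 4 arrays highest in liver transcripts, 3 of which are unirradiated p38DN, 2 receptors, Gpr183 and Cxcr6, were still called lower in unirradiated p38DN mice, and Ccr6 (-0.68, adjusted p 0.273), Cxcr4 (-0.61, adjusted p 0.114) and Cxcr3 (-0.72, adjusted p 0.154) no longer passed. The Cxcr3 call was also lost without unirradiated p38DN array 2 (adjusted p 0.0565) or 4 (adjusted p 0.0518) or unirradiated p38WT array 2 (adjusted p 0.0573), with outlier spots kept (adjusted p 0.103) and with scaling over always-detected probes (adjusted p 0.0943). Natural killer markers were lower in p38DN than p38WT for 11 of 12 genes in unirradiated and 12 of 12 in irradiated mice. T cell markers were lower for 12 of 18 at both doses, and higher for 1 in unirradiated and 2 in irradiated mice. B cell markers went otherwise, with 4 of 14 lower and 0 higher in unirradiated mice, and 0 lower and 3 higher in irradiated mice. Among all genes 37.6% were called lower and 18.3% higher in unirradiated mice, and 27.7% and 16.1% in irradiated mice. Liver markers were higher in 16 of 17 genes in unirradiated and 3 of 17 in irradiated p38DN mice. The part of these transcripts in the receptor differences was not tested.

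After irradiation p38DN was lower than p38WT for 4 receptors and higher for 0, against 27.7% of all genes called lower and 16.1% called higher. The median difference was -1 over the 7 receptors and -0.23 over all genes. Cxcr4 averaged -0.56 ± 0.561 in irradiated p38DN and 1.51 ± 0.083 in irradiated p38WT mice (SD, n = 5 each), a difference of -2.07 (SE 0.344, adjusted p 2.24e-05, limma). Cxcr6 differed by -2 (SE 0.378, adjusted p 0.000111) and Cxcr3 by -1.65 (SE 0.41, adjusted p 0.00188), and neither these 2 nor Cxcr4 overlapped. Gpr183 differed by -1 (SE 0.382, adjusted p 0.0345), a call that was lost on leaving out irradiated p38DN array 3 (-0.73, adjusted p 0.13) or 5 (-0.89, adjusted p 0.0816) or irradiated p38WT array 2 (-1.01, adjusted p 0.0523), 3 (-0.8, adjusted p 0.108) or 4 (-0.94, adjusted p 0.0707). Scaling over always-detected probes (adjusted p 0.16), no scaling (adjusted p 0.12), the deposited values (adjusted p 0.0575), no detection filter (adjusted p 0.055), a fit on the compared groups alone (adjusted p 0.0801) and normexp, which gave 0.05 (adjusted p 0.98), ended it too. Cxcr5 was 1.23 higher in irradiated p38DN mice (adjusted p 0.063), and passed without irradiated p38DN array 1 (1.45, adjusted p 0.0407) or 5 (1.48, adjusted p 0.035) and without irradiated p38WT array 1 (1.38, adjusted p 0.0499). It also passed without the 4 liver-rich arrays (1.23, adjusted p 0.0167), unscaled (1.39, adjusted p 0.0315), with the deposited values (1.45, adjusted p 0.0185) and with scaling over always-detected probes (1.59, adjusted p 0.0167). Differences in Ccr6 (-0.56, adjusted p 0.311) and S1pr4 (-0.02, adjusted p 0.974) did not pass.

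Between p38DKI and p38WT mice 0 of the 7 receptors passed at either dose by limma on the brightest probe, with 1 at an unadjusted p below 0.05 in unirradiated and 4 in irradiated mice. The shares of all genes called higher and lower were 0.0855% and 0.016% in unirradiated mice and 1.15% and 3.36% in irradiated mice. S1pr4 averaged -2.71 ± 0.929 in irradiated p38DKI and -1.68 ± 0.316 in irradiated p38WT mice (SD, n = 5 each), a difference of -1.04 (SE 0.311, adjusted p 0.0523), which passed without irradiated p38DKI array 1 (-1.26, adjusted p 0.0232) or 4 (-1.21, adjusted p 0.0311), with the stricter detection filter (adjusted p 0.0473) and with the slide as a random block (adjusted p 0.024). Cxcr4 was lower on every irradiated p38DKI array than on every irradiated p38WT array (-0.99, SE 0.344, adjusted p 0.0836), and passed with the slide as a random block (adjusted p 0.0461). The correlation within slides that the random block used was -0.051, which is 1 value for all genes. The part of the slide in the S1pr4 and Cxcr4 differences was not tested. Cxcr6 differed by -1 (SE 0.378, adjusted p 0.108) in irradiated and -0.9 (SE 0.378, adjusted p 0.565) in unirradiated mice. Its other probe was called lower in irradiated p38DKI than p38WT mice (-1.21, SE 0.36, adjusted p 0.0479), and not in unirradiated mice (-0.77, SE 0.36, adjusted p 0.658). No slide held p38DKI and p38WT mice of the same dose, so no difference within a slide could be had.

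**Figure D5:**
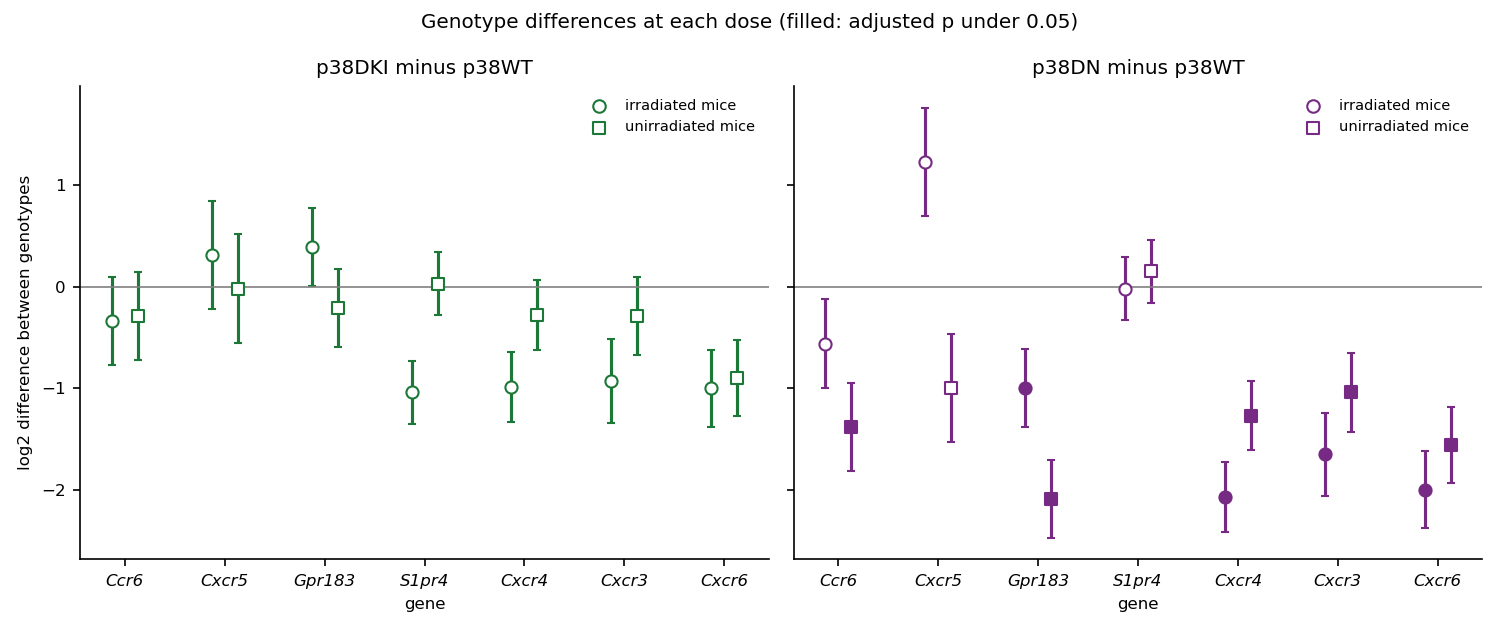
Difference of each receptor from p38WT (log2) in p38DKI mice (left) and p38DN mice (right), with circles for irradiated and squares for unirradiated mice, SE bars from limma, and filled points where the adjusted p was below 0.05. No p38DKI difference is filled, and p38DN differences are filled for Gpr183, Cxcr4, Cxcr3 and Cxcr6 at both doses and for Ccr6 in unirradiated mice.

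The change after irradiation itself differed from p38WT for 0 receptors in p38DKI and 0 in p38DN mice by limma, with 1 receptor in each at an unadjusted p below 0.05. For all genes these comparisons called 0% higher and 0.00534% lower for p38DKI minus p38WT, and 0.999% higher and 0.641% lower for p38DN minus p38WT. All comparisons with p38WT share the p38WT arrays.

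The pathway around the receptors was read from 3 lists. Of 27 other chemotactic receptors 20 were measured, and after irradiation 5 rose and 9 fell in p38DKI, 5 rose and 6 fell in p38DN, and 7 rose and 7 fell in p38WT mice. Their median changes of -0.26, -0.19 and 0.04 lay near those of all genes (-0.25, 0.01 and -0.03). The shares of all genes called higher and lower were 12.1% and 19.3%, 17.6% and 10.3%, and 15% and 12.1% in that order. Ccr7, which takes lymphocytes into lymph nodes, changed by -3.99 (adjusted p 2.09e-09, limma) in p38DKI, -3.84 (adjusted p 5.47e-09) in p38DN and -3.7 (adjusted p 6.9e-09) in p38WT mice. S1pr1, the receptor for egress from lymphoid tissue, changed by -1.82 (adjusted p 0.000353), -1.62 (adjusted p 0.00097) and -2.54 (adjusted p 6.92e-06) in the same order. Gpr18, a receptor of lymphocytes, changed by -3.15 (adjusted p 3.23e-07), -2.66 (adjusted p 4.72e-06) and -2.2 (adjusted p 5.04e-05). Cxcr1, a chemokine receptor of neutrophils, rose by 2.69 (adjusted p 0.000381), 1.79 (adjusted p 0.0112) and 3.48 (adjusted p 2.14e-05), and only 2 of 5 unirradiated p38DN arrays read it well above background. Without the 4 liver-rich arrays the Cxcr1 difference in p38DN mice was 1.49 (adjusted p 0.0732), and with normexp 0.07 (adjusted p 0.992).

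Neutrophil markers rose in 7 of 11 genes in p38DKI, 1 of 11 in p38DN and 9 of 11 in p38WT mice, beside the change in Cxcr1, and their part in it was not tested. Among all genes 12.1% were called higher and 19.3% lower in p38DKI, 17.6% and 10.3% in p38DN, and 15% and 12.1% in p38WT. Of 16 ligands and ligand enzymes 13 were measured. After irradiation 6 rose and 0 fell in p38DKI, 5 rose and 1 fell in p38DN, and 1 rose and 1 fell in p38WT mice, with medians of 0.62, 0.26 and 0.39. Spns2, a sphingosine 1-phosphate exporter, changed by -1.81 (adjusted p 0.0031, limma) in p38DN and -2.21 (adjusted p 0.000566) in p38WT mice, and its difference of -1.12 (adjusted p 0.0566) in p38DKI mice did not pass. Without the 4 liver-rich arrays Spns2 lost its p38DN call (-1.27, adjusted p 0.0586) and gained one in p38DKI mice (-1.57, adjusted p 0.00469). Mif, a cytokine that also binds Cxcr4, rose by 0.57 (adjusted p 0.0474) in p38DKI and 1.07 (adjusted p 0.000662) in p38WT mice, and its difference of 0.26 (adjusted p 0.403) in p38DN mice did not pass. The p38DKI call of Mif held in 9 of 24 alternatives.

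Sgpp1, a sphingosine 1-phosphate phosphatase, was the 1 gene of the 3 lists whose change differed between genotypes. It rose by 1.02 (SE 0.164, adjusted p 4.44e-05, limma) in p38DN and 0.62 (SE 0.164, adjusted p 0.00561) in p38DKI mice, against 0.14 (SE 0.164, adjusted p 0.584) in p38WT mice. After irradiation its level averaged 4.3 in p38DN and 4.25 in p38WT mice, a difference of 0.05 (adjusted p 0.836). In unirradiated mice it averaged 3.28 in p38DN and 4.11 in p38WT, a difference of -0.83 (adjusted p 0.000121). The p38DN minus p38WT difference of the changes was 0.88 (SE 0.232, adjusted p 0.0481), and the p38DKI minus p38WT difference of 0.48 (SE 0.232, adjusted p 0.357) did not pass. With the replicate number as a block the adjusted p of the p38DN minus p38WT difference of the changes was 0.0581, which ended the call. Leaving out the 4 liver-rich arrays ended it too (adjusted p 0.0747). Among its alternatives the adjusted p ran between 0.0318 and 0.662, and 17 of the 20 single arrays ended the call when left out.

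Of 31 signal transduction genes downstream of the receptors, all measured, 6 rose and 2 fell in p38DKI, 15 rose and 2 fell in p38DN, and 10 rose and 1 fell in p38WT mice. Over all genes 12.1% were called higher and 19.3% lower in p38DKI, 17.6% and 10.3% in p38DN, and 15% and 12.1% in p38WT mice. The list's median changes were 0.08, 0.52 and 0.36, beside -0.25, 0.01 and -0.03 for all genes. Rgs3, which shortens G protein signals, rose by 0.91 (adjusted p 0.0013, limma) in p38DKI, 0.97 (adjusted p 0.000639) in p38DN and 1.48 (adjusted p 5.74e-06) in p38WT mice. In the fit to the deposited log2 values the Rgs3 change was -0.1 (adjusted p 0.682) in p38DN and 0.32 (adjusted p 0.148) in p38DKI mice, and neither passed. The array constants of those values move all genes of a comparison alike. That fit takes the brightest of the deposited probes, so another Rgs3 probe may stand for the gene there, which was not checked. Normexp ended the Rgs3 call in all 3 genotypes (adjusted p 0.15 to 0.34). Rgs18, a regulator of the same family found in platelets, rose by 1.32 (adjusted p 0.00571), 1.59 (adjusted p 0.00119) and 2.03 (adjusted p 0.000116). Rasgrp2, an activator of Rap1 in platelets and T cells, rose by 0.82 (adjusted p 0.0384), 1.56 (adjusted p 0.000306) and 1.86 (adjusted p 5.19e-05), and Rap1b, its target, by 0.97 (adjusted p 0.00862), 1.64 (adjusted p 6.37e-05) and 1.39 (adjusted p 0.000452). The p38DKI call of Rasgrp2 held in 13 of 24 alternatives. Platelet markers rose in 5 of 12 genes in p38DKI, 12 of 12 in p38DN and 11 of 12 in p38WT mice, and their part in the Rgs18, Rasgrp2 and Rap1b changes was not tested.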

How the data were processed

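RNA of mouse blood was labelled with Cy3 and hybridised to 30 Agilent arrays, 1 for each sample. Per the file headers, the deposited scanner files hold spot intensity values from Agilent Feature Extraction 12.0.2, whose processed signal is background-corrected, with probe positions in mm9. The deposited series table holds log2 values on 18417 probes and 30 arrays. For 18140 single-spot probes it equals log2 of the processed signal minus 1 constant for each array, so its scale is log2 and its direction that of intensity, and how the constants were set is not given in the sources used here.

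Spots marked as outliers (0.327% of non-control spots) were left out, repeat spots averaged, and log2 intensities reduced by each array's 75th percentile. Probes well above background on at least 4 of 5 arrays of a group, with values on at least 20 arrays, were kept (23614), and the brightest kept probe stood for its gene. A model with 1 mean for each group was fitted to 18724 genes on all 30 arrays in limma 3.58.1 (R 4.3.3; 24 residual degrees of freedom), with Benjamini-Hochberg adjustment over all genes for each of 9 comparisons. The script was tested on simulated data. Array names were updated to RefSeq symbols through accessions for 29056 probes. The number of arrays limits the precision.

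The receptors and the gene lists were chosen with earlier results of these data known. Genes named beside the receptors followed a rule: of each pathway list, up to 4 genes of smallest p in p38WT mice and those whose change differed between genotypes, the 3 genes most like each receptor, and Cd79a, Cd3e and Ncr1. Same-numbered irradiated and unirradiated samples share a slide in p38DN mice, per the file headers. Correlations of their deviations from the group means lay between -0.214 and 0.396 in p38DKI, -0.147 and 0.411 in p38DN, and -0.127 and 0.302 in p38WT mice. Alternatives were other scalings, background corrections, filters and probe rules, fits on the compared groups only, replicate and slide blocks, single arrays left out, and the 4 arrays highest in liver markers left out. Normexp used an offset of 50, where the 75th percentile of intensity lay between 43.3 and 230.4 over the arrays. Such an offset shrinks log2 changes of low signals, so a call lost with normexp does not test background alone.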

Additional observations from a re-analysis of the deposited data

Results flagged for a closer look

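In an outlier test over 42 receptor groups, of which chance marks about 5%, 2 arrays stood far from the other 4 of their group, both for Cxcr4. That count is about what chance alone would mark. Irradiated p38DKI array 2 had a Cxcr4 level of -0.76, where the other 4 lay between 0.59 and 1.04. Unirradiated p38WT array 5 had a Cxcr4 level of 2.36, where the other 4 lay between 1.59 and 1.65. Irradiated p38DKI array 2 also had the highest liver score, 9.06. Unirradiated p38WT array 5 lay on slide 2, apart from the other 4 on slide 1. The change of Sgpp1 after irradiation differed between p38DN and p38WT mice by 0.88 in a direct test of the difference (limma, adjusted p 0.0481). That call was lost without the 4 liver-rich arrays (adjusted p 0.0747).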

How the results depend on the processing

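Of 1701 receptor values under the alternatives, 1558 kept their direction and their side of the threshold, 49 lost a call, 31 gained one and 63 changed sign. Of those sign changes 62 were not called in either setting, and the exception was Gpr183 between irradiated p38DN and p38WT mice. The falls of Ccr6 and Gpr183 in p38DKI and p38WT mice, and of Ccr6 in p38DN mice, were called in all of their alternatives. Of 1076 values of the other named genes, 968 kept both, 92 lost a call, 10 gained one and 6 changed sign. The causes were not tested. Signal over background limits the levels in irradiated p38DN mice, where 2 of 5 arrays read the Ccr6 probe and 3 of 5 the Gpr183 probe well above it. Slides 6 to 10 held p38DN mice alone, so no setting separates slide from genotype there.

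The replicate numbers pair samples by slide in p38DN mice, and in the other genotypes the samples share only a number. Of 15 irradiated samples, 7 correlated best with the unirradiated sample of their own number, among the 5 unirradiated samples of their genotype. Whether 7 is more than chance gives was not tested. With the replicate block, 5775 genes changed after irradiation in p38DKI, 5274 in p38DN and 5064 in p38WT mice, 283 differed in change between p38DN and p38WT mice and 0 between p38DKI and p38WT mice, and the called receptors numbered the same in all 9 comparisons.

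Each setting was changed alone, and normexp carried its offset of 50, which shrinks log2 changes of low signals. The 5867 genes changed by irradiation in p38DKI mice became 1379 with normexp and 680 with slide as a fixed block. The 5228 genes changed by irradiation in p38DN mice became 3372 with no scaling and 436 with normexp. The 5076 genes changed by irradiation in p38WT mice became 1335 with normexp and 163 with slide as a fixed block. The 1 gene whose change differed between p38DKI and p38WT mice became 0 with the 75th percentile of always-detected probes, array median scaling, no detection filter, normexp, only the compared groups fitted, the replicate block and the 4 liver-rich arrays left out, 2 with every probe tested, 4 with no scaling and 75 with slide as a random block, and numbered 0 to 70 with single arrays left out. The 307 genes whose change differed between p38DN and p38WT mice became 501 with the 75th percentile of always-detected probes, 106 with array median scaling, 78 with no detection filter, 1 with normexp, 511 with only the compared groups fitted, 2 with slide as a fixed block, 461 with slide as a random block and 693 with the 4 liver-rich arrays left out, and numbered 84 to 454 with single arrays left out. The share of tested genes different between irradiated p38DKI and p38WT mice, 4.51%, became 0.47% with array median scaling, 2.9% with the deposited log2 values, 1.13% with no detection filter, 0.406% with no scaling, 0.00534% with normexp, only the compared groups fitted and slide as a fixed block, 10.3% with slide as a random block and 1.68% with the 4 liver-rich arrays left out, and was 1.2% to 5.67% with single arrays left out. The 19 genes different between unirradiated p38DKI and p38WT mice became 12 with array median scaling, 7 with no scaling, 1 with normexp, 2 with slide as a fixed block, 35 with slide as a random block and 33 with the 4 liver-rich arrays left out, and numbered 9 to 33 with single arrays left out. The 8195 genes different between irradiated p38DN and p38WT mice became 963 with normexp. Of the receptors changed by irradiation in p38DKI mice, 5 became 3 with slide as a fixed block. Of the receptors changed by irradiation in p38DN mice, 5 became 1 with normexp. Of the receptors changed by irradiation in p38WT mice, 5 became 3 with normexp and 2 with slide as a fixed block. Of the receptors whose change differed between p38DN and p38WT mice, 0 became 1 with no scaling and the 4 liver-rich arrays left out. Of the receptors different between irradiated p38DKI and p38WT mice, 0 became 2 with slide as a random block and 1 with the stricter detection filter (range 0 to 1 with single arrays left out). Of the receptors different between unirradiated p38DN and p38WT mice, 5 became 2 with the 4 liver-rich arrays left out.

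For the difference of the change, p38DKI minus p38WT, the reversed values were Ccr6 0.06 with the 75th percentile of always-detected probes, 0.38 with array median scaling, 0.27 with the deposited log2 values, 1.01 with no scaling, 0.15 with normexp and 0.19 with the 4 liver-rich arrays left out and between -0.38 and 0.19 with single arrays left out (against -0.04). For Cxcr3 they were 0.4 with no scaling (against -0.64). For Cxcr4 they were 0.33 with no scaling (against -0.72). For Cxcr5 they were -0.43 with slide as a fixed block (against 0.32). For Cxcr6 they were 0.33 with array median scaling, 0.21 with the deposited log2 values, 0.95 with no scaling, 1 with normexp and 0.32 with the 4 liver-rich arrays left out and between -0.3 and 0.32 with single arrays left out (against -0.1). For the difference of the change, p38DN minus p38WT, they were Cxcr6 0.08 with no scaling and 0.44 with normexp (against -0.44). For S1pr4 they were 0.35 with no scaling (against -0.17). Between irradiated p38DKI and p38WT mice they were Ccr6 0.26 with no scaling (against -0.34). For Cxcr3 they were 0.53 with slide as a fixed block (against -0.93). For Cxcr5 they were -0.08 with normexp and between -0.01 and 0.9 with single arrays left out (against 0.31). For Cxcr6 they were 0.29 with slide as a fixed block (against -1). For Gpr183 they were -0.24 with normexp (against 0.39). Between unirradiated p38DKI and p38WT mice they were Cxcr3 1.21 with slide as a fixed block (against -0.29). For Cxcr5 they were 0.51 with slide as a fixed block and between -0.12 and 0.1 with single arrays left out (against -0.02). For Cxcr6 they were 0.74 with slide as a fixed block (against -0.9). For Gpr183 they were 0.12 with slide as a fixed block (against -0.21). For S1pr4 they were -0.32 with array median scaling, -0.09 with the deposited log2 values and -0.42 with no scaling and between -0.1 and 0.13 with single arrays left out (against 0.03). Between irradiated p38DN and p38WT mice they were Ccr6 0.08 with normexp (against -0.56). For Gpr183 they were 0.05 with normexp (against -1). For S1pr4 they were 0.34 with the 75th percentile of always-detected probes, 0.02 with array median scaling, 0.2 with the deposited log2 values, 0.14 with no scaling and 0.05 with normexp and between -0.13 and 0.11 with single arrays left out (against -0.02). Between unirradiated p38DN and p38WT mice they were S1pr4 -0.21 with no scaling and between -0.02 and 0.26 with single arrays left out (against 0.15). For the change in p38DN mice they were Ncr1 -0.1 with normexp and -0.55 with the 4 liver-rich arrays left out (against 0.29). For Rgs3 they were -0.1 with the deposited log2 values, where another probe may stand for the gene (against 0.97). For the change in p38WT mice they were Sgpp1 -0.06 with the 75th percentile of always-detected probes, -0.29 with no scaling and -0.5 with normexp (against 0.14).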
